A study of Mus musculus with 6 samples.

Results

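The genes described here encode subunits of the GABA-A receptor, the chloride channel opened by the transmitter GABA. They are Gabra2, Gabra3, Gabra4 and Gabra5 (alpha subunits), Gabrb1 and Gabrb2 (beta subunits) and Gabrg3 (a gamma subunit), chosen by name as 7 of the 23016 entries of the deposited table, each with 1 entry. The cerebral cortex of 6 mice was dissected on the day of birth (postnatal day 0), and the total RNA of each brain was sequenced as 1 library. The groups were 3 Fezf2 KO pups (Fezf2-/-) and 3 wild type pups (Fezf2+/+), all from crosses between Fezf2+/- parents. Litter m1 supplied replicates 1 and 2 of either genotype, and litter m2 supplied replicate 3. No treatment or transgene is named. Which part of Fezf2 is missing from the KO allele is not stated in the labels.

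A GABA-A receptor is a ring of subunits around a chloride pore, most often made of alpha, beta and gamma subunits, with GABA binding between alpha and beta. The alpha subunit sets much of the receptor's affinity, kinetics and place on the cell: receptors with the alpha2 subunit are common at the start of the axon, those with alpha5 are often outside synapses, and those with alpha4 often pair with the delta subunit and carry tonic current. In the immature cortex alpha2, alpha3 and alpha5 are prominent. Fezf2 encodes a transcription factor, made in neurons of the deep cortical layers, that specifies their projections below the cortex. The comparison asks which transcripts differ in newborn cortex when Fezf2 is lost.

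Gene reads per library numbered 44978380 to 52872577, and values below are normalised read counts, that is, reads divided by 1 size factor per library. As a check of genotype, Fezf2 itself lay at 5030 to 5928 in the wild type libraries and at 1377 to 1989 in the Fezf2 KO libraries (log2 difference -1.75, limma adjusted p = 0.000832). Markers of cortical excitatory neurons (7 of 7 in the table, 0 at zero in all libraries) were present throughout, with a summed level of 107710 to 115160 in wild type and 115980 to 132830 in Fezf2 KO cortex. Of 17557 genes tested with limma, 125 (0.712%) passed an adjusted p of 0.05. Wild type 2 was the single library with a high Xist value (3782, against 0 to 2.81 in the other libraries), so it came from a female pup and the others carried Y-linked transcripts such as Ddx3y (376 to 452). Because whole cortex was sequenced, fewer cells of a type and less RNA per cell cannot be told apart.

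None of the 7 subunit genes passed the test between genotypes in limma, where 2 of them had an unadjusted p under 0.05 (9.03% of all genes tested did), and none passed in edgeR, which called 0.689% of all genes. DESeq2 called 1 of them, Gabra5, beside 2.3% of all genes. The median log2 difference of the 7 was 0.0063, from -0.14 for Gabra4 to 0.27 for Gabra5, against a median of 0.0025 over all genes tested. In Gabra5 and Gabra3 every Fezf2 KO library lay above every wild type library, 2 of 7 genes, while 14.5% of all genes tested had genotypes that did not overlap (7.6% with Fezf2 KO higher). In the other 5 genes the genotypes overlapped.

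**Figure D1:**
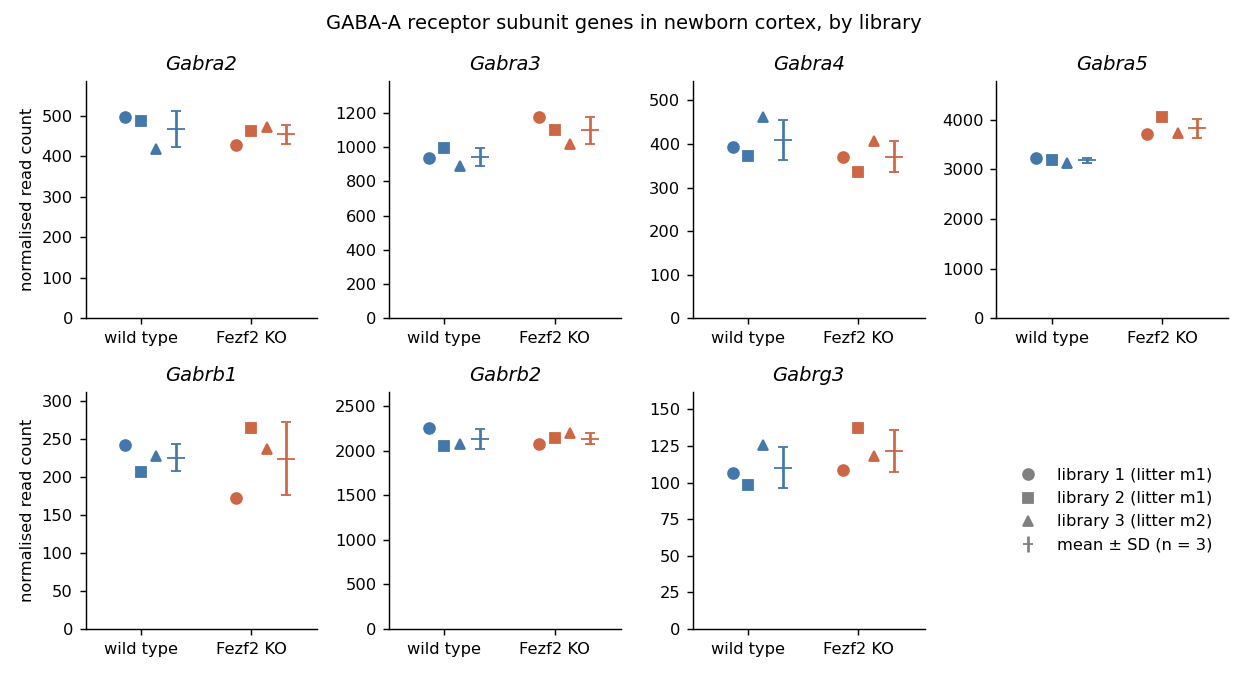
Normalised read count (vertical axes, from 0) of each of the 7 subunit genes in the 3 wild type and 3 Fezf2 KO libraries. Symbols mark the library, and the bar beside each group is its mean ± SD. The genotypes separate for Gabra3 and Gabra5 and overlap for the other 5 genes.

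Gabra5 encodes the alpha5 subunit, known for extrasynaptic receptors of hippocampal and deep cortical pyramidal neurons. Wild type 1, 2 and 3 had values of 3240, 3186 and 3131, and Fezf2 KO 1, 2 and 3 had 3716, 4055 and 3735. The wild type libraries were close together (3186 ± 54.9, SD, n = 3) and the lowest Fezf2 KO library stood above the highest of them (3835 ± 190, SD, n = 3). The difference was 1.20-fold with a 95% interval of 1.10 to 1.31 (log2 0.27, SE 0.054). Limma gave it an unadjusted p of 0.00105 and an adjusted p of 0.0879, rank 210 among the genes tested, so it missed the threshold. The adjusted p was 0.0933 in edgeR and 0.00261 in DESeq2. Within litter m1 the log2 difference was 0.27, and between the single libraries of litter m2 it was 0.25. When any 1 library was left out it stayed between 0.23 and 0.29, with limma adjusted p between 0.117 and 0.261.

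The depth behind Gabra5 was high, from 3463 to 4577 reads per library. One annotated neighbour bears on these reads: Gm9962, a predicted gene on the opposite strand, shares 148 exonic bases with Gabra5 in the GENCODE M21 gene models. No source names the strand of the libraries, so reads in those bases cannot be assigned to one or the other. Gm9962 had 264 ± 17.1 in wild type and 313 ± 35.5 in Fezf2 KO cortex (SD, n = 3 each; limma adjusted p = 0.619), a difference of fewer counts than that of Gabra5. Hippocampal markers (6 of 6 in the table, 0 at zero in all libraries, 0 passing the test) summed to 3089 to 3509 in wild type and 3516 to 4704 in Fezf2 KO cortex. Interneuron markers (17 genes in 18 entries) summed to 61904 to 65297 in wild type and 70298 to 75294 in Fezf2 KO cortex. Limma called 2 of these entries higher, beside 0.712% of all genes tested. Gad1, Gad2 and Slc32a1 of this list each overlapped between genotypes, and the median log2 difference of the list was 0.14. Layer 6 corticothalamic markers (6 of 6) summed to 34800 to 35665 in wild type and 22302 to 23202 in Fezf2 KO cortex. Limma called 5 of these 6 markers lower, beside the same 0.712%. The part of these cell types in the values of Gabra5 was not tested.

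The genes whose levels followed Gabra5 most closely over the 6 libraries, among 12288 named genes with a mean of at least 50, were Pdgfra (Pearson's r 0.992), Ppp1r7 (0.989), Zhx3 (0.987) and Ttc3 (0.985). Pdgfra encodes a growth factor receptor of oligodendrocyte precursors and Ppp1r7 a regulatory subunit of protein phosphatase 1. These r values describe log2 levels of genes measured in the same libraries and in the same genotype groups. Limma passed none of the 4, with adjusted p of 0.186 for Pdgfra, 0.896 for Ppp1r7, 0.662 for Zhx3 and 0.384 for Ttc3.

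Gabra3, on the X chromosome, encodes the alpha3 subunit of immature cortical neurons. Wild type 1, 2 and 3 had 939, 998 and 891, whereas Fezf2 KO 1, 2 and 3 had 1176, 1104 and 1018. The groups did not overlap, but the gap between wild type 2 and Fezf2 KO 3 was small beside the spread within each genotype (943 ± 53.7 against 1099 ± 78.8, SD, n = 3 each). The difference was 1.17-fold (95% interval 1.03 to 1.32, log2 0.22, SE 0.080), with an unadjusted p of 0.0248 and an adjusted p of 0.424 in limma. Without the female library, wild type 2, the log2 difference was 0.26 (limma adjusted p = 0.480).

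The start regions of Gabra5 and Gabra3 are shown because these are the members whose genotypes did not overlap. Each window holds 250 bases before a RefSeq start and 50 after it, on the strand of the gene, from the GRCm38.p6 table, and Gabra3 has a second, overlapping window that is not shown. Capitals mark a CCAAT box (CCAAT) or a TATA box (TATAAA), searched on both strands, so that ATTGG and TTTATA are the same motifs on the other strand.
Gabra5, chr7:57510010-57510309, minus strand: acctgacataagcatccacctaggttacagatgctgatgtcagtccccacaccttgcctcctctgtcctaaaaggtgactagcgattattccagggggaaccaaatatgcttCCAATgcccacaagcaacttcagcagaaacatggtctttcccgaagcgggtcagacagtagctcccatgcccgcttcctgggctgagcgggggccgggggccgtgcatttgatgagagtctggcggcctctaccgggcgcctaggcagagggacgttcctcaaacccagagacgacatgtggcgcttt
Gabra3, chrX:72656758-72657057, minus strand: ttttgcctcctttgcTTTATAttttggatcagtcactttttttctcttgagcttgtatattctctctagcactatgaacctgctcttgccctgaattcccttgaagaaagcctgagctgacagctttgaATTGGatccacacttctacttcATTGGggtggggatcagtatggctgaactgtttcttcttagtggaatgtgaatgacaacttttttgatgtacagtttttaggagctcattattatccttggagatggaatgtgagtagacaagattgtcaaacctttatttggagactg
The Gabra5 window held 1 CCAAT box and no TATA box, and the Gabra3 window held 2 CCAAT boxes and 1 TATA box. A CCAAT box stood in 37.4% and a TATA box in 13.6% of 32851 RefSeq windows of the same length. The E-box CANNTG, which is not marked, occurred 3 times in the Gabra5 window and 0 times in that of Gabra3 (72.3% of all windows hold one). The windows also differed in CpG dinucleotides, with 13 in that of Gabra5 and 0 in that of Gabra3. These matches describe the letters and are not evidence of binding.

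Gabra2, which encodes the alpha2 subunit of early synapses and axon initial segments, had 496, 488 and 417 in wild type 1, 2 and 3. The Fezf2 KO libraries had 428, 462 and 472, inside the wild type range. The difference was 0.98-fold, with a 95% interval of 0.83 to 1.14 (limma adjusted p = 0.967). Gabra4, the alpha4 subunit of tonic receptors in forebrain and thalamus, had 393, 373 and 461 in wild type and 369, 336 and 408 in Fezf2 KO cortex. In both litters its Fezf2 KO value lay lower (log2 -0.12 in m1 and -0.18 in m2), yet the genotypes overlapped and the 95% interval ran from 0.75-fold to 1.09-fold (limma adjusted p = 0.844).

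Of the beta subunits, which carry part of the GABA site and are needed for assembly, Gabrb2 differed least. Its wild type values were 2256, 2050 and 2080, and its Fezf2 KO values 2073, 2142 and 2194. All Fezf2 KO libraries lay inside the wild type range, and the 95% interval of the difference was narrow, from 0.91-fold to 1.11-fold (limma adjusted p = 0.995). Gabrb1 had 242, 207 and 228 in wild type and 172, 265 and 237 in Fezf2 KO cortex. Here Fezf2 KO 1 was the lowest and Fezf2 KO 2 the highest of the 6 libraries, and the interval was wide, from 0.75-fold to 1.28-fold (limma adjusted p = 0.989).

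Gabrg3, which encodes the gamma3 subunit, an uncommon partner of alpha and beta subunits, had the fewest reads of the 7, 113 to 153 per library. Its values were 107, 98.6 and 125 in wild type and 109, 137 and 118 in Fezf2 KO cortex. The litters differed in direction, with a log2 difference of 0.25 in m1 and -0.084 between the single libraries of m2. The genotypes overlapped, and the interval of 0.86-fold to 1.40-fold leaves room for a difference larger than that of Gabra5 (limma adjusted p = 0.899).

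The subunit genes lie in clusters in the mouse genome. Gabra2, Gabra4 and Gabrb1 share a cluster on chromosome 5 with Gabrg1, and Gabra5 and Gabrg3 lie near each other on chromosome 7. Gabrb2 is on chromosome 11, as is Gabra6, and Gabra3 is on the X chromosome, as are Gabre and Gabrq. On chromosome 7 the log2 differences were 0.27 for Gabra5 and 0.14 for Gabrg3, of which the latter had a 95% interval that included 0. On chromosome 5 all intervals included 0.

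Levels of different genes were compared per kilobase of merged exons in the GENCODE M21 gene models, which are not the models the authors counted on, so their order is approximate. Gabra5 was highest, with 1071 ± 18.4 normalised counts per kilobase in wild type (SD, n = 3), followed by Gabrb2 (519 ± 27.2) and Gabra3 (244 ± 13.9). Gabra4 (97.7 ± 11.1) and Gabra2 (79.8 ± 7.44) came next, then Gabrb1 (16.4 ± 1.30) and Gabrg3 (9.91 ± 1.24). The order was the same in Fezf2 KO cortex and with the longest coding transcript as the length. Neighbours in this order had separate ranges in both genotypes except Gabra4 and Gabra2. Their wild type ranges were separate by a small margin (lowest Gabra4 value 89.0 per kilobase, highest Gabra2 value 84.7), and in Fezf2 KO cortex they overlapped.

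**Figure D2:**
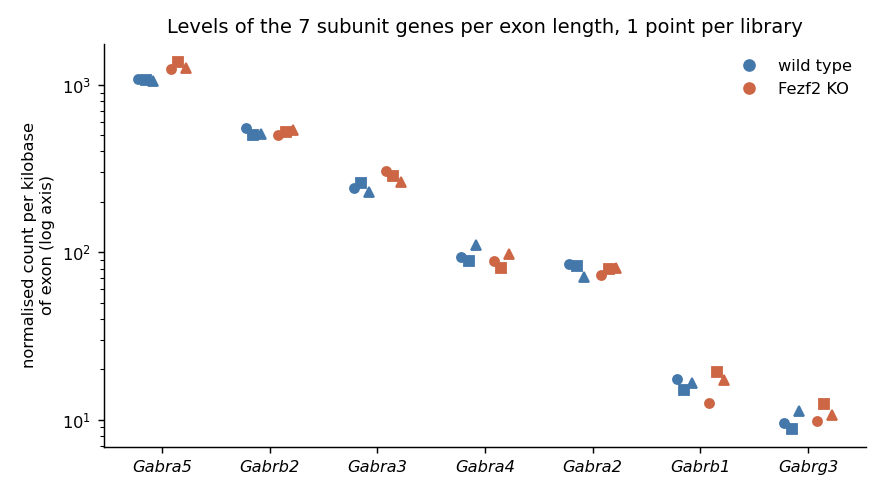
Normalised count per kilobase of merged exons (vertical log axis) for the 7 subunit genes, with 1 point per library and the library symbol as in the plot of counts by gene. Gabra5 is highest and Gabrg3 lowest in both genotypes, and Gabra4 and Gabra2 lie side by side.

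Among the 4 alpha genes, Gabra5 gave 72.1%, 71.3% and 71.9% of the summed counts per kilobase in the wild type libraries and 72.9%, 75.4% and 74.0% in the Fezf2 KO libraries. The share of Gabra3 was about level (16.3% ± 0.763 and 16.4% ± 1.21, SD, n = 3 each), and those of Gabra4 (6.56% ± 0.853 against 5.11% ± 0.653) and Gabra2 (5.34% ± 0.415 against 4.46% ± 0.259) were lower in Fezf2 KO cortex. A 2-sided exact permutation test gave p = 0.1 for the shares of Gabra5, Gabra4 and Gabra2, the smallest p that 3 against 3 libraries allow, and p = 1 for that of Gabra3. Shares of 1 total depend on each other, and a higher Gabra5 by itself lowers the other shares. These tests are therefore not separate results, and the counts of Gabra4 and Gabra2 themselves overlapped between genotypes. Summed over the 7 genes, wild type 1, 2 and 3 had 7673, 7400 and 7333 normalised counts, and the Fezf2 KO libraries had 8043, 8501 and 8183. That sum did not overlap between genotypes (log2 difference 0.14, exact permutation p = 0.1, again the smallest possible). It is weighted to genes with many reads. Its mean was 7468 in wild type and 8242 in Fezf2 KO cortex, and that of Gabra5 alone was 3186 and 3835. The sum thus mostly repeats Gabra5 and does not describe the 7 genes as a group, whose median log2 difference was 0.0063.

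Besides these, 7 further genes of ionotropic GABA receptor subunits were examined, of which 3 passed the filter on low values. Limma called 0 of these 3 higher and 0 lower (edgeR 0). In limma 2 of them had an unadjusted p under 0.05, beside 9.03% of all genes tested. Gabrd, which encodes the delta subunit of extrasynaptic receptors, stood apart in size. The wild type libraries had 357, 359 and 357, and Fezf2 KO 1, 2 and 3 had 81.2, 196 and 128. Every Fezf2 KO library was well below the nearly equal wild type libraries (log2 difference -1.49, SE 0.272, 0.36-fold with a 95% interval of 0.23 to 0.55), but the Fezf2 KO libraries differed so much among themselves that limma's adjusted p was 0.0613. It was 0.0763 in edgeR, 0.0479 in limma-voom and 2.8e-05 in DESeq2, and 0.1005 in limma with litter as a block. With 1 library left out limma gave 0.0430 without Fezf2 KO 1 and 0.0107 without Fezf2 KO 2, but leaving out a wild type library gave 0.174, 0.188 or 0.199, and leaving out Fezf2 KO 3 gave 0.208.

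Striatal markers (14 names, 13 in the table, 0 at zero in all libraries) had the same order as Gabrd among the Fezf2 KO libraries. They did not among the wild type libraries, where Gabrd was level. Limma called 1 of these markers lower, beside 0.712% of all genes tested. Wild type 1, 2 and 3 had a mean centred log2 level of 0.79, 0.51 and 0.32 for these markers, and the Fezf2 KO libraries, in the same order, had -1.26, 0.26 and -0.62. Their summed level was 20139 to 24828 in wild type and 11076 to 18272 in Fezf2 KO cortex. Adding this mean level to the limma model gave Gabrd a log2 difference of -0.68 (adjusted p = 0.365), and Gabra5 one of 0.36 (adjusted p = 0.166). The mean level itself did not overlap between genotypes, so this fit cannot tell it apart from genotype. Layer 6 corticothalamic, hippocampal, thalamus and interneuron markers shared the order of Gabrd among the Fezf2 KO libraries by mean centred log2 level. Those of cortical excitatory neurons, subplate and astrocytes did not. The part of striatal cells, or of these other cell types, in the values of Gabrd was not tested.

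The remaining subunit genes examined had few reads. Gabrg1 had 100.4 ± 16.2 and 81.0 ± 16.1, and Gabrq 13.1 ± 4.20 and 21.6 ± 4.21 (SD, n = 3 each). Gabre, Gabrr1 and Gabrr2 stayed under 14 in every library, and Gabra6, a cerebellar subunit, had a single read in all 6 libraries together.

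**Figure D3:**
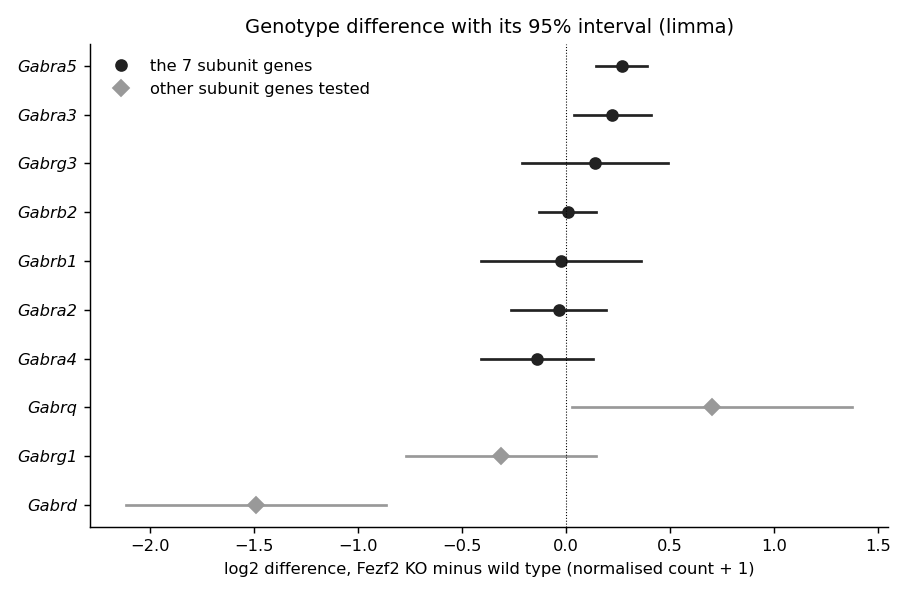
Log2 difference between Fezf2 KO and wild type (horizontal axis, on the normalised count plus 1) with its 95% interval from limma, for the 7 subunit genes (black) and the 3 other subunit genes tested (grey). Gabra5 at 0.27 and Gabra3 at 0.22 have intervals above 0, and Gabrd at -1.49 lies lowest.

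The genes that make, load and clear GABA did not pass the test in either direction (0 of 7 tested, median log2 difference 0.05, edgeR 0). In limma 1 had an unadjusted p under 0.05, beside 9.03% of all genes tested. Gad1 and Gad2, which encode the enzymes of GABA synthesis, had 2705 ± 175 and 1568 ± 53.1 in wild type and 2995 ± 892 and 1636 ± 225 in Fezf2 KO cortex. Gad1 spread widely in Fezf2 KO cortex, with 2069, 3849 and 3066 in libraries 1, 2 and 3. Slc32a1, the vesicular GABA transporter, had 4521 ± 178 and 4340 ± 881. Slc6a11, the glial GABA transporter GAT3, had 8753 ± 404 and 10191 ± 633, without overlap (log2 0.22, limma adjusted p = 0.218), and Abat, which breaks GABA down, had 3703 ± 258 and 4256 ± 592 (SD, n = 3 each).

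The metabotropic GABA-B receptor genes were level: Gabbr1 had 22043 ± 487 in wild type and a mean of 22043 in Fezf2 KO cortex, and the 95% interval of Gabbr2 ran from 0.91-fold to 1.12-fold. None of their auxiliary subunit genes passed limma (0 of 6 tested in the list with Gabbr1 and Gabbr2, edgeR 0, DESeq2 1). In that list 2 had an unadjusted p under 0.05 in limma, beside 9.03% of all genes tested. Kctd12, whose protein speeds GABA-B desensitisation, had 10459, 10765 and 9199 in wild type and 8491, 7124 and 7235 in Fezf2 KO cortex (log2 -0.41, limma adjusted p = 0.0879). It was called without Fezf2 KO 1 and by DESeq2. Kctd8 had 620, 492 and 584 in wild type and 226, 467 and 318 in Fezf2 KO cortex (log2 -0.80, limma adjusted p = 0.275), and was called without Fezf2 KO 2. Its lowest and highest Fezf2 KO libraries were those with the lowest and highest striatal marker level. Interneuron, hippocampal, thalamus and layer 6 corticothalamic markers had the same lowest and highest Fezf2 KO libraries by mean centred log2 level. The wild type libraries of Kctd8 did not have the order of the striatal level. The part of these cell types in the values of Kctd8 was not tested.

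Among 27 genes of the inhibitory synapse scaffold and of receptor trafficking, 3 had an unadjusted p under 0.05 in limma, beside 9.03% of all genes tested. Of all genes tested 0.712% passed limma's adjusted p, and of these 27, 0 fell and 1 rose. It was Mdga1, a membrane protein that binds neuroligin-2 and limits inhibitory synapse formation, with 11344, 10582 and 9382 in wild type and 17989, 16186 and 16275 in Fezf2 KO cortex (1.61-fold, 95% interval 1.43 to 1.82, limma adjusted p = 0.00594). It is also a gene of upper-layer neurons. The call was lost in limma with the striatal level in the model (log2 0.65, adjusted p = 0.138) and in litter m1 alone (log2 0.64, adjusted p = 0.0629). The striatal level did not overlap between genotypes, so the fit that holds it cannot tell it apart from genotype. Gphn, which encodes gephyrin, the scaffold beneath synaptic GABA-A receptors, had 2091 ± 54.8 and 2044 ± 232 (SD, n = 3 each, limma adjusted p = 0.955).

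Of 15 genes of chloride balance, which sets whether GABA excites or inhibits, 0 passed limma (edgeR 0, DESeq2 0). In limma 2 of them had an unadjusted p under 0.05, beside 9.03% of all genes tested. These 2 were Clcn2 (log2 -0.34, limma adjusted p = 0.432) and Oxsr1 (log2 -0.17, limma adjusted p = 0.408). Slc12a5, the chloride extruder KCC2, had 6285, 6346 and 5091 in wild type and 4067, 6891 and 5157 in Fezf2 KO cortex. Slc12a2, the importer NKCC1, had 970, 1306 and 880 against 1363, 1021 and 1083. Wild type 1, 2 and 3 had log2 ratios of Slc12a5 to Slc12a2 of 2.69, 2.28 and 2.53, and the Fezf2 KO libraries had 1.58, 2.75 and 2.25. The genotypes overlapped (difference -0.31, 2-sided exact permutation p = 0.6), and without Fezf2 KO 1 the difference was 0. Glycine receptor and transporter genes gave 0 of 3 passing (1 with an unadjusted p under 0.05, edgeR 0), with Glra2 at log2 -0.22 and Slc6a9 at -0.19.

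**Figure D4:**
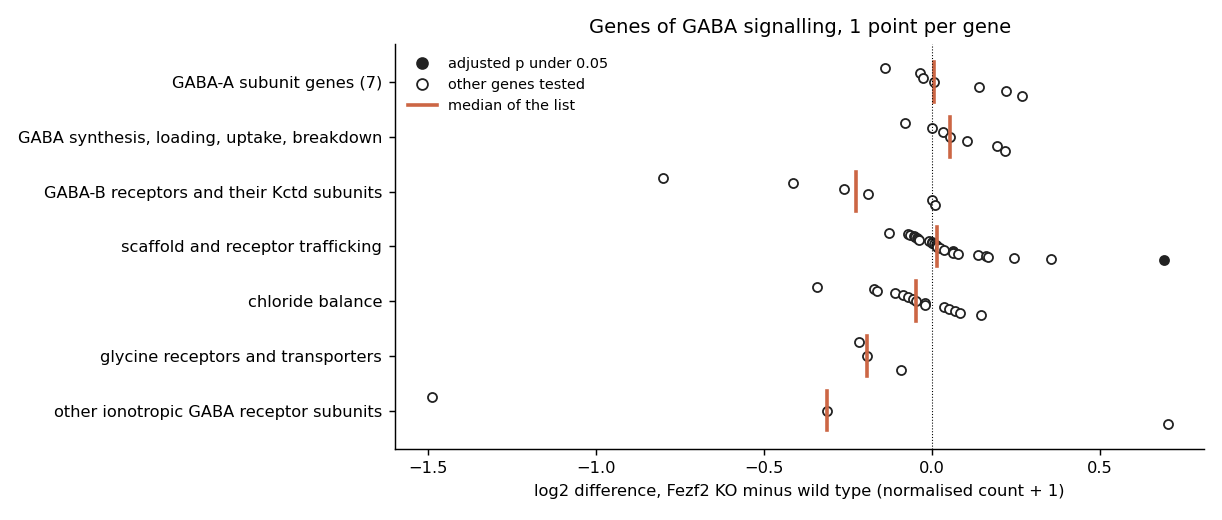
Log2 difference between Fezf2 KO and wild type (horizontal axis) of each gene tested in 7 groups of GABA signalling genes. Filled points passed limma's adjusted p of 0.05, and the vertical bar is the median of the group. Mdga1 is the single filled point, and the median of the 7 GABA-A subunit genes is 0.0063.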

How the data were processed

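Total RNA of 6 newborn mouse cortices was made into Illumina TruSeq libraries and read on a Genome Analyzer, per the labels' protocols. Tools listed in the submitters' processing notes are Bowtie, STAR and DESeq, with the build mm9 and without roles or settings. The deposited signal is, from the values, each gene's read count over the size factor of its library, and is not scaled to length. In each library 100% of the values were whole multiples of 1 read (0.812 to 0.936) within 0.006, which gave back 44978380 to 52872577 reads. P-values measure the spread between brains, which includes counting error.

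Genes reaching a value of 10 in 3 or more libraries (17557) entered limma 3.58.1 in R 4.3.3 on log2(value + 1), with genotype as the term, a variance trend and Benjamini-Hochberg adjustment over all genes. Fold differences are on that scale. All 7 subunit genes passed the filter. Single values per library were compared with 2-sided exact permutation tests. The recovered reads went to edgeR 4.0.16 and DESeq2 1.42.0 as alternatives, which called 121 and 403 genes. The design assumed these units. The limma, edgeR and DESeq2 fits with genotype as the term were tested on simulated data, in 3 runs with 200 genes changed. Of the calls, 8.61% were false in limma, 8.59% in edgeR and 19.7% in DESeq2. Of the 1.5-fold changes, limma found 66.7%, edgeR 67% and DESeq2 78.3%. Of the 2-fold changes they found 89.3%, 89.3% and 93%. Differences smaller than 1.5-fold were not simulated, so the power to call them is not known. Genes called by DESeq2 alone are to be read with its share of false calls.

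The subunit genes, the pathway and marker lists and the alternatives were chosen with earlier results of these data known. Named genes were the 7 subunit genes, Fezf2, 7 other subunit genes, 8 fixed pathway genes, the changed genes of each pathway list (or the 2 with the smallest p), and the 4 genes most correlated with the member of smallest p. Some items of the subunit family are not reported here. Gm9962, Xist, Ddx3y and Slc6a13 were added after the values were seen. Marker lists of subplate, thalamus and astrocytes were also summed, in that order below. They gave 8558 to 10951, 992 to 1116 and 15317 to 15539 in wild type, and 9512 to 10062, 1259 to 1382 and 12345 to 14346 in Fezf2 KO cortex. By limma 4 of 7 subplate markers were lower, 1 of 5 thalamus markers was higher and 0 of 5 astrocyte markers passed. Of all genes tested 0.712% passed. The subplate sums overlapped between genotypes. The mean centred log2 level of these markers was 0.30 to 0.51 in wild type and -0.48 to -0.28 in Fezf2 KO cortex. That of the thalamus markers overlapped, at -0.33 to 0.22 in wild type and -0.35 to 0.40 in Fezf2 KO cortex.

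Litter is a shared label, so a fit with litter as a block was made. Across 14922 genes, which are not independent replicates, deviations from the genotype mean had r of -0.117 to 0.262 in pairs of libraries of 1 litter, and -0.182 to -0.067 in other pairs.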

Additional observations from a re-analysis of the deposited data

How the results depend on the processing

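Gabra5, Gabra3 and Gabrg3 stayed above wild type and Gabra4 below it under all 17 alternatives. Litter m2 alone was not among these, and there Gabrg3 lay lower in Fezf2 KO cortex (log2 -0.084). Of the 7 subunit genes 0 passed except Gabra5 in DESeq2, where 1 was called. DESeq2 had a larger share of false calls in simulated data than limma or edgeR. With litter as a replicate block limma called 138 genes, edgeR 131, and 0 of the 7, so no call on them changed (Gabra5 adjusted p = 0.0919 in limma). Values near 0 changed sign. Gabra2 lay between -0.12 and 0.0095 when 1 library was left out and at 0.076 with the striatal covariate. Gabrb1 lay between -0.16 and 0.15, and at 0.38 with the covariate. Gabrb2 lay between -0.020 and 0.049, at -0.0067 when scaled to total reads and at -0.029 in litter m1 alone. Over all genes limma called 125, DESeq2 403, litter m1 alone 29, the striatal covariate 36, and leaving out 1 library 61 to 119. Leaving out 1 library or using litter m1 alone leaves fewer brains, so those counts cannot be compared directly with 125.

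In the GABA-B list DESeq2 called 1 gene, and 0 to 1 were called with 1 library left out. In the scaffold list DESeq2 called 2 (Mdga1 and Plcl1) and litter m1 alone 0, and with the striatal covariate 1 was called, Nsf in place of Mdga1. Among the other subunit genes DESeq2 called 1 and limma-voom 1, and 0 to 1 with 1 library left out, Gabrd each time. The cause of these changes was not tested. The summed level of the 7 genes differed by 0.12 to 0.16 (log2) under its alternatives. The log2 ratio of Slc12a5 to Slc12a2 differed by -0.59 without Fezf2 KO 2 and by 0 without Fezf2 KO 1. The median over all genes lay between -0.0105 and 0.0069 under all 17 alternatives. Of the 7 genes Gabrg3 had the fewest reads, 113 to 153 per library.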

Other observations

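Slc6a13, which encodes the GABA transporter GAT2, known from the meninges, had 361 normalised counts in wild type 1 and between 2.62 and 4.87 in the other 5 libraries. It did not enter the test, because fewer than 3 libraries reached a value of 10. Its neighbour in the family Slc6a12 (BGT1) stayed near the limit of detection, at means of 2.98 in wild type and 1.70 in Fezf2 KO cortex, where 3 reads correspond to 2.44 to 2.81.

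Fezf2 KO 1 was the library at the edge of several GABA-related genes that did not pass the test. It had the lowest value of the 6 for Gabrb1 (172), Gabrd (81.2), Gad1 (2069), Slc32a1 (3383), Kctd8 (226), Gphn (1777) and Slc12a5 (4067), and the highest for Gabra3 (1176) and Slc12a2 (1363). It also had the lowest mean centred log2 level of striatal, layer 6 corticothalamic, subplate, thalamus and astrocyte markers, and the highest of cortical excitatory neuron markers. For hippocampal and interneuron markers it was at neither edge. The GABA-related genes named here were picked after their values were seen, and no test was made of the pattern.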
